A study of Mus musculus with 2 samples.

Results

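The regions described here are peaks of open chromatin that lay at the end of a single gene and were called at both time points of a mouse prostate tumor series. A peak of the early library became a member when it overlapped a peak of the late library by at least 1 bp and touched the windows, reaching 1 kb to either side of either annotated end, of exactly 1 protein-coding gene. Members were thus chosen by the calls of both lists, and everything that compares the lists at these sites is given as a description. The rule gave 2560 members, which was 44.6% of the 5735 early peaks on chromosomes 1 to 19, X and Y (exact binomial 95% interval 43.3 to 45.9%) and 55.4% of the 4618 early peaks with a late counterpart. The late list held 22570 peaks on these chromosomes. Members lay at 2503 of 21887 protein-coding genes, so the background share of genes with a member was 11.4%.

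M6, the late stage, came from prostate tumor cells of C57BL/6 mice after 6 months of tamoxifen, and W2, the early stage, from such cells after 2 weeks of tamoxifen. The stages are those of neuroendocrine prostate cancer (NEPC), whose cells carry nerve and endocrine markers. Neither the genotype of the tumors nor what tamoxifen acted on is given in the sources used here. Chromatin was measured by ATAC-seq, in which a transposase cuts and tags DNA that is free of nucleosomes. With 1 library per time point there is no replicate check, no test was made, and every interval covers counting error or the spread over members only. Read depth is unknown. In bulk libraries, fewer cells of a type and less accessibility per cell cannot be told apart.

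Peaks at gene starts usually mark promoters, the stretches where RNA polymerase II assembles. Most mammalian promoters of widely used genes are rich in CpG dinucleotides and stay free of nucleosomes in nearly every cell type. They carry short motifs for DNA-binding regulators. Among these motifs are the CCAAT box, bound by the trimer NF-Y, the GC box, bound by SP factors, and motifs for the ETS family, NRF1 and ZBTB33 (Kaiso). Enhancers and marker genes of one cell type depend more on factors of that type.

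A few promoters show what such a member looks like. They are those of the members with the highest W2 −log10 q that hold the CCAAT box (Tpp2), the GC box (Opn3), the ETS motif (Naa35), the NRF1 motif (Slc37a4) and the ZBTB33 motif (Rbm15). The Tpp2 sequence is a whole RefSeq promoter entry of GRCm38.p6, the assembly that mm10 names, and the others are pieces of 120 bases from such entries. Each is written 5′ to 3′ in the direction of its gene. The Opn3 entry held 5 GC boxes, of which 1 is shown. For Opn3 and Rbm15 the entry belongs to a transcript start inside the gene, downstream of the annotated gene start. They cover chr1:43933744-43934043 on the plus strand for Tpp2, chr1:175692763-175692882 on the minus strand for Opn3, chr13:59585083-59585202 on the plus strand for Naa35, chr9:44396873-44396992 on the plus strand for Slc37a4 and chr3:107333420-107333539 on the minus strand for Rbm15. Capitals mark the motif the promoter was chosen for, on whichever strand it lies, so that the CCAAT boxes of Tpp2 appear as ATTGG. In Rbm15 the 2 matches overlap on opposite strands. Other motifs were left in lower case.
Tpp2: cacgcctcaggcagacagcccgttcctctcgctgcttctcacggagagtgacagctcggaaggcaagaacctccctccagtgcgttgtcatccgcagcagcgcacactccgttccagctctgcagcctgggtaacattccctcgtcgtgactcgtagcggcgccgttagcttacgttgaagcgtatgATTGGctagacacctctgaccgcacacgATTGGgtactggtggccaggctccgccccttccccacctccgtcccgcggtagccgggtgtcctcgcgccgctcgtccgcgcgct
Opn3: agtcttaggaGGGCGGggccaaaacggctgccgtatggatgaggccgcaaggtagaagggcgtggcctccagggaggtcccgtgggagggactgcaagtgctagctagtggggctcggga
Naa35: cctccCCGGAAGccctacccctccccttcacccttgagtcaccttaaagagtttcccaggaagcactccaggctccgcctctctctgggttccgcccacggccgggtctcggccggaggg
Slc37a4: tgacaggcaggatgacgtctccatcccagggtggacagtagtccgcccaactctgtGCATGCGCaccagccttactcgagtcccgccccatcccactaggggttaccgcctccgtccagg
Rbm15: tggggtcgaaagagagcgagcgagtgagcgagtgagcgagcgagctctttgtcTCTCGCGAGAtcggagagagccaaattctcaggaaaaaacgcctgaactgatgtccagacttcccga

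The strongest members in W2 lay at genes of varied function. Height is the pileup, counted in tags at the highest point of a peak and recovered from the deposited statistics. By W2 −log10 q the first was a peak at the downstream end of Lars2, which encodes the mitochondrial leucyl-tRNA synthetase (chr9:123461737-123462258), with 84 tags in M6 and 93 in W2. Its own start carried a separate and lower member with 23 tags in M6 and 18 in W2. No filter for regions prone to artefact signal was applied here, at Lars2 or at other members. Opn3, a non-visual opsin (chr1:175692443-175693146), had 76 tags in M6 and 59 in W2. Tpp2, a tripeptidyl peptidase that trims peptides leaving the proteasome (chr1:43933682-43934079), had 43 tags in M6 and 43 in W2. Tpp2 was equal in both libraries, and Lars2 was the only one of the 10 that was lower in M6.

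The other 7 of the 10 with the highest W2 −log10 q all had more tags in M6. Hip1, a clathrin adaptor, had 45 tags in M6 and 42 in W2. Rps6ka5, the histone kinase MSK1, had 65 tags in M6 and 47 in W2. Copz1, a subunit of the COPI vesicle coat, had 56 tags in M6 and 41 in W2. Rbm15, an RNA-binding part of the m6A methylation machinery, had 59 tags in M6 and 49 in W2, over a promoter with the ZBTB33 motif printed above. Hsd17b12, an enzyme of fatty acid elongation, had 72 tags in M6 and 44 in W2, Osbp, the oxysterol-binding protein, had 70 and 45, and Oaz1, the antizyme that holds down polyamine synthesis, had 67 and 43. For the last 3 the exact interval of the ratio of M6 to W2 tags stayed above 1 (1.64, 1.11 to 2.44, for Hsd17b12), and for the other 7 of the 10 it included 1. By the authors' fold over local background 6 of the 10 were lower in M6, namely Lars2, Opn3, Tpp2, Hip1, Rbm15 and Osbp, with 7.70 in M6 and 9.58 in W2 at Opn3 and 7.92 in M6 and 8.30 in W2 at Osbp.

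Over all members the M6 peaks were taller and wider. The median pileup was 33 tags in M6 (interval 32 to 33) and 22 in W2 (21 to 22), and the median width 523.5 bases in M6 and 309 bases in W2. The log2 ratio of M6 to W2 pileup had a median of 0.58 (0.56 to 0.60), with the middle 90% of members between −0.13 and 1.19. M6 was higher at 2308 members (90.2%), equal at 67 and lower at 185 (7.23%, 6.25 to 8.30%), where all shared W2 peaks gave a background of 11.1% lower. At least 2-fold higher pileups in M6 were found at 366 members (14.3%, 13.0 to 15.7%), against a background of 13.2% of all shared W2 peaks. At 0 members was M6 at or below 0.5 times W2 (background 0.217%). The share past 2-fold was thus near the background, and no member stood at the opposite extreme. The choice of members by the W2 list bears on these counts, since a site needed at least 12 tags in W2 and 10 in M6 to be listed at all.

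**Figure D1:**
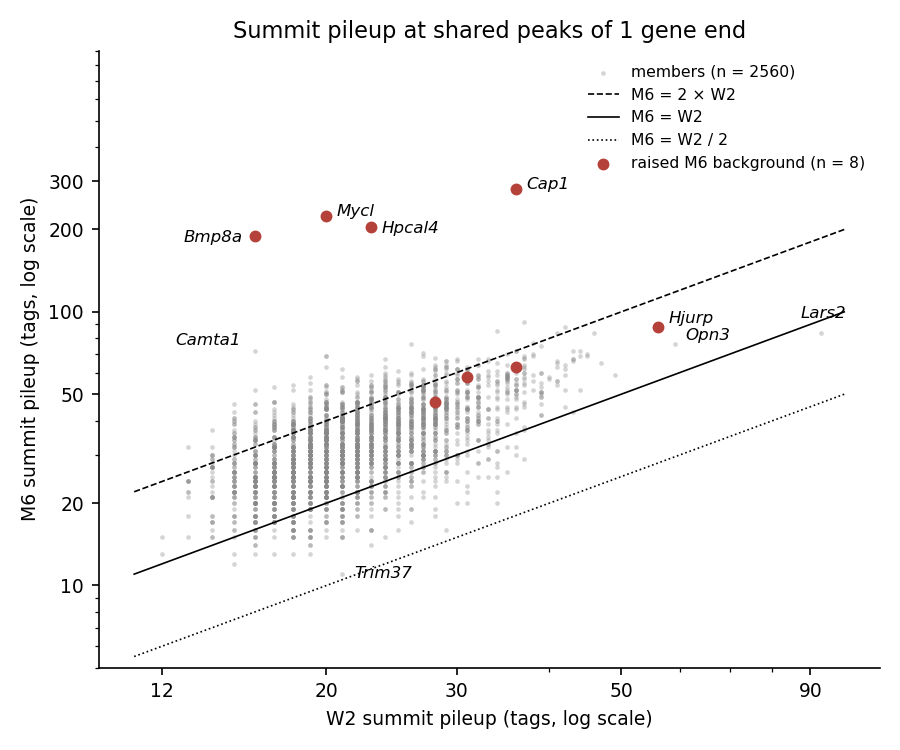
Summit pileup of the 2560 members in M6 (vertical axis) against W2 (horizontal axis), in tags on log scales, with lines for M6 at 2 times, equal to and 0.5 times W2. The cloud lies between the equal and 2-fold lines, 4 of the 8 members with raised M6 background (red) sit between 189 and 281 tags in M6, and Lars2 has the highest W2 pileup (93 tags).

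Measured against the background around each peak, the difference was smaller. The authors' fold of summit over local background had a median of 6.21 in M6 and 5.04 in W2, and the local background itself had a median of 4.40 tags in M6 and 3.46 in W2. The M6 fold was above the W2 fold at 2025 members (79.1%, 77.5 to 80.7%), and only 27 members had an M6 fold at least 2 times the W2 fold. The lowest background of each library, a genome-wide floor, was 2.65 tags in M6 and 2.96 in W2, and dividing by it raised the number past 2-fold to 626. Tall and short members had similar ratios. In the lowest of 4 classes by W2 pileup (12 to 19 tags) the median log2 ratio was 0.61, and in the next classes it was 0.56, 0.56 and 0.55.

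Shared peaks at 2 or more genes had values close to those of members, and shared peaks away from genes had lower ones. The 721 shared W2 peaks that touched 2 or more genes had a median log2 ratio of 0.61 (0.57 to 0.63), with 14.1% past 2-fold and 7.63% lower in M6. The 1337 shared W2 peaks away from gene ends had a median of 0.40 (0.37 to 0.43), below the interval of the members, with 10.5% past 2-fold (8.95 to 12.3%) and 20.3% lower in M6 (18.2 to 22.6%). Their median pileups were 28 tags in M6 and 20 in W2. Of all W2 peaks at exactly 1 gene, 94.1% (93.2 to 94.97%) were members. The 160 that were not had a median W2 pileup of 19 tags and a median width of 234.5 bases.

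Members sat on gene starts, not on gene ends in general. Strand could be taken from the RefSeq promoter table for 2122 members, and in 2103 of these (99.1%, 98.6 to 99.5%) the W2 summit was nearer the start than the other end of the gene. The W2 peaks at 1 gene without an M6 counterpart lay nearer the start in 116 of 127 cases (91.3%, 85.0 to 95.6%), an interval below that of the members. The median summit of start members was 36 bases upstream of the annotated start in M6 and 35 bases upstream in W2. Within 300 bases of the start lay 85.4% of the M6 and 85.8% of the W2 summits, and upstream of it 64.1% of the M6 and 64.2% of the W2 summits. Of all members, 1873 (73.2%) covered an annotated gene end with the W2 peak itself.

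**Figure D2:**
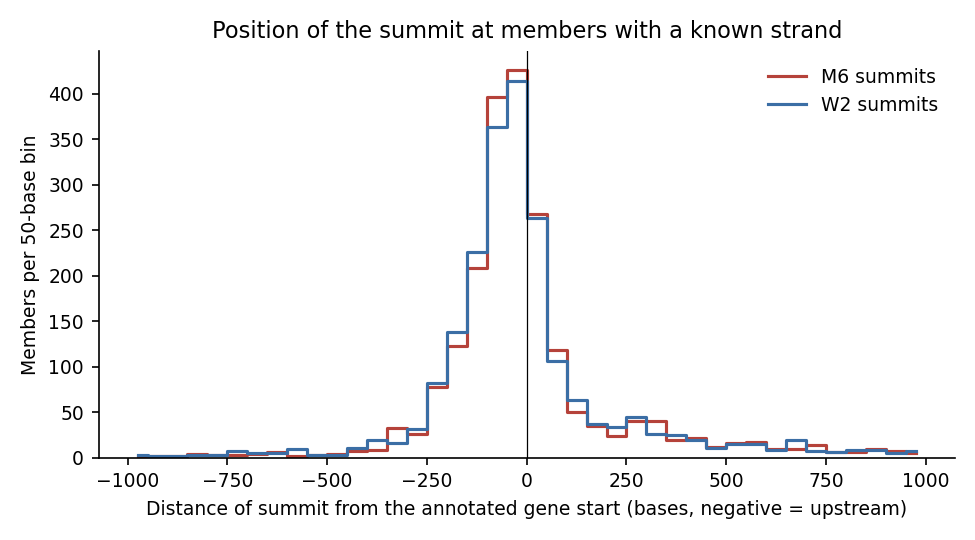
Number of members per 50-base bin (vertical axis) by distance of the summit from the annotated gene start in bases (horizontal axis, upstream negative), for M6 and W2. Both outlines peak just upstream of the start, with 426 M6 and 414 W2 summits in the bin nearest to it.

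At the other end of their genes lay 19 members, with a median pileup of 26 tags in M6 and 20 in W2, and 17 of them were higher in M6, near the 90.2% of all members. Besides Lars2 the exception that was lower in M6 was Fbxo21, an F-box protein of ubiquitin ligases, with 16 tags in M6 and 25 in W2. Named after their values were seen, others of the 19 were Ckm, the muscle creatine kinase, with 31 tags in M6 and 20 in W2, Ltc4s, the leukotriene C4 synthase, with 24 and 21, and S100a6, a calcium-binding protein, with 25 and 18. The basal gene Sfn and the snoRNA host neighbour Tmem107 were also among them. None of the 18 apart from Lars2 exceeded 42 tags in M6 or 25 in W2.

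Summits of M6 and W2 mostly marked the same spot. The distance between the summits had a median of 43 bases, was at most 100 bases at 2044 members (79.8%, 78.2 to 81.4%) and exceeded 500 bases at 27. The W2 summit fell inside the M6 peak at 98.7% of members, and the whole W2 peak did so at 67.8%. The largest distance was 1628 bases, at Mycl, a MYC family gene. At Setd5, a chromatin regulator, 3 members lay under a single M6 peak of 1353 bases, and the distance reached 1088 bases. The 2560 members had 2518 M6 counterparts, and 84 members shared their M6 peak with another W2 peak.

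Those shared counterparts touch the highest ratios. Camta1, a calmodulin-binding transcription factor, headed the list with 72 tags in M6 and 16 in W2 (ratio 4.5, 2.59 to 8.29). A second Camta1 member nearer the start, under the same M6 peak, had 36 tags in W2, which makes the ratio 2.00. Nr1d2, the nuclear receptor REV-ERBβ, had 69 tags in M6 and 20 in W2, and its second member under that M6 peak had 27 in W2. The authors' fold at Nr1d2 was 7.22 in M6 and 3.66 in W2, whose ratio lies below the interval of the pileup ratio (3.45, 2.07 to 5.99). Ppm1b, a PP2C phosphatase, had 69 tags in M6 and 20 in W2, with 44 in W2 at its second member. Of the 84 members 33 passed 2-fold, and without the 84 the share past 2-fold was 13.4% (12.1 to 14.9%).

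The other 9 of the 12 highest ratios had an M6 peak to themselves. Pou2f1, which encodes the octamer-binding factor OCT1, had 52 tags in M6 and 16 in W2 (ratio 3.25, 1.83 to 6.10). Prkaca, the catalytic subunit of protein kinase A, had 63 tags in M6 and 20 in W2 (3.15, 1.88 to 5.50). Marf1, an RNA-binding regulator first studied in oocytes, had 53 tags in M6 and 17 in W2, and Tmem167b, a membrane protein, had 46 and 15. All 4 were near 3-fold, with intervals that stayed above 1. The 12 were chosen as the highest ratios outside raised M6 background, and no interval allows for that choice. Wbp2, a coactivator with WW-domain partners, had 58 tags in M6 and 19 in W2. Stxbp5l, a tomosyn that restrains vesicle fusion, had 54 tags in M6 and 18 in W2, and Cdv3 had 62 and 21. Ap3d1, a subunit of the AP-3 adaptor, had 76 tags in M6 and 26 in W2, and Ip6k1, an inositol phosphate kinase, had 55 and 19. By the authors' fold the M6 excess of Pou2f1, Stxbp5l and Cdv3 fell below the interval of the pileup ratio, to log2 values of 0.65, 0.65 and 0.75.

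The lowest ratios were less far from 1, and the interval of each of the 12 included 1. Trim37, a ubiquitin ligase, had 11 tags in M6 and 21 in W2 (ratio 0.52, 0.23 to 1.14). Tmem33, an endoplasmic reticulum protein, had 16 tags in M6 and 29 in W2, and Iftap had 20 and 34. Il17ra, the interleukin-17 receptor, had 14 tags in M6 and 23 in W2, and Utp11, a factor of ribosomal RNA processing, had 15 and 24. Smarca2, the ATPase BRM of the SWI/SNF remodeler, had 22 tags in M6 and 34 in W2 (0.65, 0.36 to 1.14). Cmtr1, which methylates the mRNA cap, had 17 tags in M6 and 26 in W2, and H2-Q4, a class Ib histocompatibility gene, had 19 and 28. Fbxo21, AI987944, LOC100504180 and Mctp2 completed the 12. At these counts a lower M6 level could not be told from counting error for any single one of them.

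A raised M6 background, at least 3 times the library median of 3.52 tags, surrounded 8 members. Of these, 4 lay on chromosome 4 within 0.5 Mb. Cap1, an actin regulator, had 281 tags in M6 and 36 in W2, Mycl had 224 and 20, Hpcal4, a neuronal calcium sensor, had 204 and 23, and Bmp8a, a bone morphogenetic protein, had 189 and 16. Their log2 pileup ratios ran from 2.96 to 3.56, and by the authors' fold all 4 turned lower in M6, with log2 values of −0.87 for Cap1, −0.67 for Mycl, −0.50 for Hpcal4 and −0.32 for Bmp8a. The other 4 were Hjurp, the chaperone of centromeric histone CENP-A, with 88 tags in M6 and 56 in W2, Dnajb5 with 63 and 36, Ocel1 with 58 and 31, and Jun with 47 and 28. By the authors' fold Jun (3.38 in M6 and 3.88 in W2) and Dnajb5 (5.42 in M6 and 5.89 in W2) turned lower in M6 as well, and Hjurp (5.17 in M6 and 4.71 in W2) and Ocel1 (4.96 in M6 and 4.80 in W2) stayed higher.

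The promoters of members were rich in CpG. A RefSeq promoter entry, a window from 250 bases before to 50 after a transcript start, lay within 1 kb of the W2 summit for 2055 members and gave 2017 distinct windows. Windows with over 50% G and C and an observed over expected CpG ratio above 0.6 were called CpG-rich. By this rule 84.1% of member windows were CpG-rich (82.5 to 85.7%), against 44.9% of all 21263 protein-coding windows. The share was 85.5% at shared peaks of 2 or more genes, 57.7% (47.6 to 67.3%) at the 104 windows of W2 peaks without an M6 counterpart, 67.1% where M6 alone had a gene-end peak and 26.1% for genes with none. Windows of W2 peaks were those of the listed start nearest the W2 summit. The sets of all windows, of M6 alone and of genes with none hold every listed start, whether or not a peak lay near it. The part of this unlike choice in the CpG and motif shares was not tested.

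Motifs were counted as exact letters on both strands. The CCAAT box (CCAAT) was held by 56.4% of member windows (54.2 to 58.6%) and 38.2% of all windows. The GC box (GGGCGG) was in 78.6% of member and 46.2% of all windows, the ETS motif (CCGGAAG) in 20.9% and 11.6%, NRF1 (GCATGCGC) in 6.59% and 3.52%, YY1 (AAGATGGCG) in 3.37% and 1.83%, CRE (TGACGTCA) in 3.77% and 2.23%, and the E-box (CACGTG) in 11.8% and 7.84%. ZBTB33 (TCTCGCGA) was in 2.48% of member and 1.41% of all windows, ZNF143 (ACTACAATT) in 1.24% and 0.508%, and the core of CTCF (AGGGGGC) in 20.1% and 12.9%. The TATA motif (TATAAA) went the other way, with 5.21% of member and 12.6% of all windows, as did AP-1 (TGANTCA), with 4.12% and 6.99%. FOXA (TGTTTAC) had 2.18% and 3.01%, with overlapping intervals. Where M6 alone had a gene-end peak, NRF1 was in 5.80%, YY1 in 3.01% and CRE in 3.49% of windows. ZBTB33 was there in 2.25% and AP-1 in 4.46%, all with intervals overlapping those of members. The CCAAT box (33.8%), GC box (62.6%), ETS motif (17.5%) and CTCF core (15.9%) lay below the members' intervals there, and TATA (7.31%) above. Shared peaks at 2 or more genes had the CCAAT box in 57.7%, the GC box in 75.4%, ETS in 26.5% and ZBTB33 in 4.89%. GC box and CTCF core matches shared bases in 225 member windows, CCAAT and GC box matches in 24 and GC box and ETS matches in 12. A match is a run of letters and shows no binding.

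The share with a CCAAT box climbed with peak height. Members were put in 4 classes by pileup. The box was in 41.3% (37.5 to 45.3%) of the windows in the lowest class of W2 pileup, 52.7% in the second, 61.9% in the third and 75.2% (71.1 to 78.9%) in the highest. By M6 pileup the classes gave 43.9%, 50.2%, 60.4% and 73.0%. The lowest class was close to the 38.2% of all promoters. The ETS motif ran the other way, with 24.0%, 22.8%, 18.7% and 16.7% from the lowest to the highest class of W2 pileup. By W2 pileup GC boxes stayed between 76.3% and 81.3% and E-boxes between 10.7% and 13.9%, with overlapping intervals. By M6 pileup the GC box climbed too, with 69.0% (64.9 to 72.8%), 78.8%, 83.2% and 84.9% (81.3 to 87.9%), and the ETS motif had 24.9%, 24.7%, 18.8% and 14.5%. Among CpG-rich windows alone, the lowest class held the CCAAT box in 39.2% and the highest in 75.5%.

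**Figure D3:**
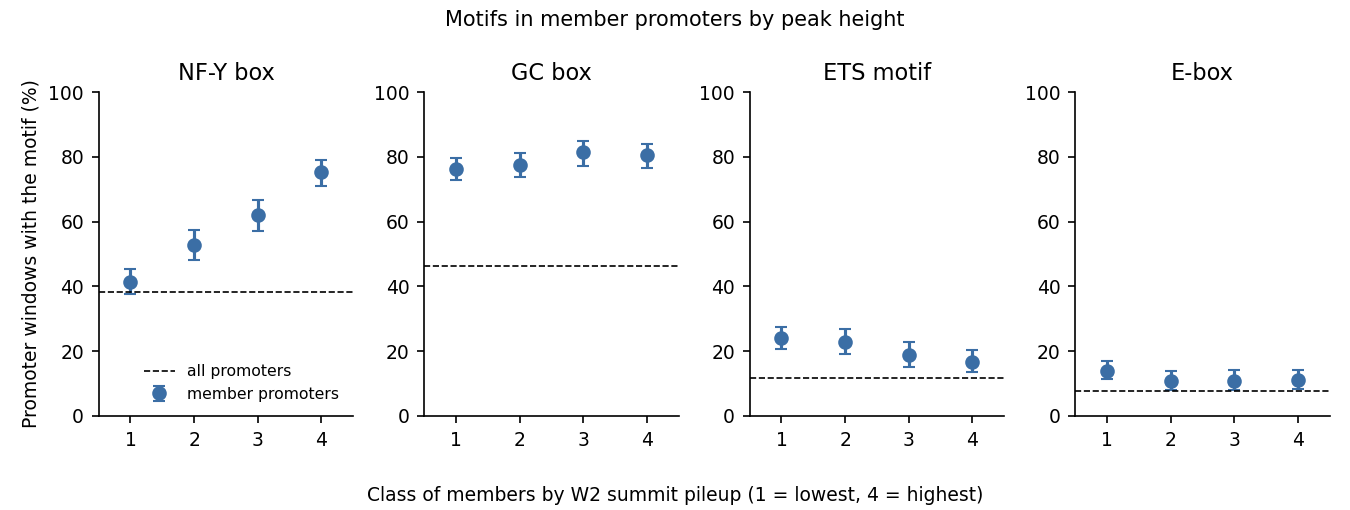
Share of member promoter windows with each motif in percent (vertical axis) by class of W2 summit pileup (horizontal axis). Bars are exact 95% intervals and the dashed line is the share of all protein-coding windows. The NF-Y (CCAAT) box climbs to 75.2% in the highest class, the GC box and E-box intervals overlap between classes and the ETS motif is at 16.7% in the highest. By M6 pileup, not plotted, the GC box climbs from 69.0% in the lowest class to 84.9% in the highest.

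Height also went with the number of CCAAT boxes in a window. Member windows with 0, 1, 2, 3 and at least 4 boxes numbered 879, 507, 353, 174 and 104. The median M6 pileup was 30, 33, 36, 40 and 44.5 tags in this order, and the median W2 pileup was 20, 22, 24, 25.5 and 26.5 tags. The intervals of the windows without a box and of those with at least 2 did not overlap in either library. W2 peak width moved along, with medians of 302 bases at 0 boxes and 387.5 bases at 4 or more, while the G and C content had medians of 64% at 0 and 60% at 4 or more boxes. The part of width and base content in the result was not tested. The log2 ratio of M6 to W2 had medians of 0.55 (0.52 to 0.58) at 0 boxes and 0.72 (0.63 to 0.81) at 4 or more.

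**Figure D4:**
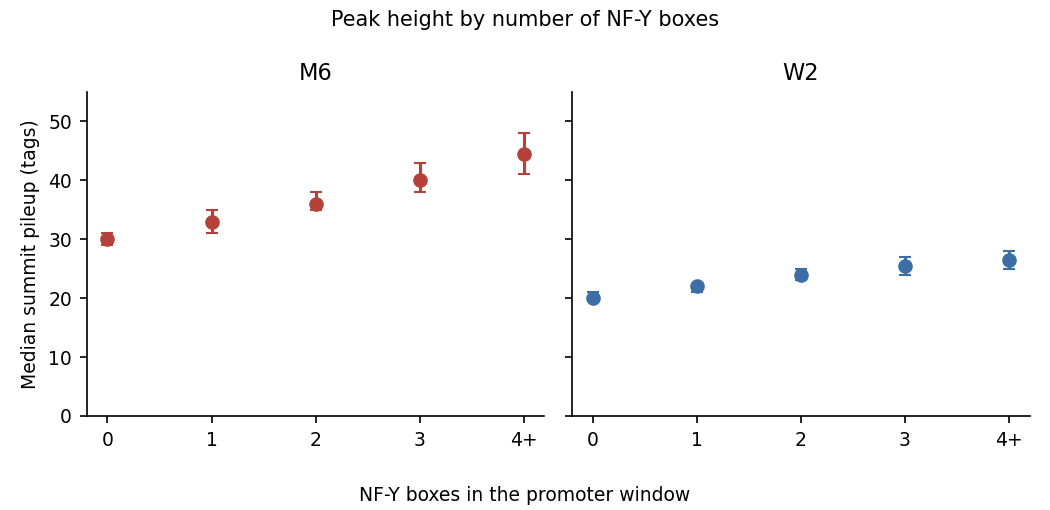
Median summit pileup in tags (vertical axis) of member promoters by number of NF-Y (CCAAT) boxes in the promoter window (horizontal axis), for M6 at the left and W2 at the right. Bars are 95% order-statistic intervals of the median, and the medians climb with the number of boxes to 44.5 tags in M6 and 26.5 in W2.

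The summits lay close to the boxes. In the 1138 member windows with a CCAAT box, the distance from the summit to the nearest box had a median of 34 bases in M6 and 33 in W2, and was at most 50 bases for 61.5% in M6 and 63.1% in W2. For the 421 windows with an ETS motif the shares within 50 bases were 39.9% in both libraries. In the highest class of W2 pileup the box lay within 50 bases of the summit for 66.9% of windows in M6 and 67.8% in W2, and in the lowest class for 53.6% in M6 and 52.5% in W2. A window with several boxes has more chances of one near the summit. Box positions had a median of 83 bases upstream of the start in member windows and 88 in all windows.

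In the same class of M6 height the CCAAT share of members was above that of late-only promoters, except in the highest class, where the intervals overlapped. Members were set apart from late-only peaks by the W2 call itself, and the share climbed with W2 pileup. The classes match M6 height only, so the part of W2 height in this difference was not tested. M6 peaks at exactly 1 gene that overlapped no W2 peak were put in the members' classes of M6 pileup. In the lowest class (11 to 26 tags) the box was in 43.9% of member windows (39.7 to 48.1%) and 33.1% of 2236 late-only windows (31.2 to 35.1%). The next class (27 to 33 tags) gave 50.2% (45.7 to 54.7%) and 38.6% (34.0 to 43.5%), and the third (34 to 42 tags) 60.4% (55.9 to 64.7%) and 44.1% (34.7 to 53.9%). In the highest class the box was in 73.0% of member windows (68.8 to 76.9%) and 12 of 24 late-only windows (29.1 to 70.9%). Both sets climbed with height. Within the lowest class the median M6 pileup was 22 tags for members and 19 for late-only windows. GC boxes in the lowest class were in 69.0% of member and 68.0% of late-only windows.

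The GC box share differed along the ratio of M6 to W2. The GC box was in 68.4% (64.1 to 72.4%) of the windows in the lowest class of the log2 ratio, and in 80.1%, 82.5% and 83.9% (80.4 to 87.0%) of the following classes. Where M6 was lower than W2 it was in 57.2% of 145 windows (48.8 to 65.4%), against 82.0% of 284 windows past 2-fold (77.1 to 86.3%). These windows also differed in CpG content, 73.8% being CpG-rich where M6 was lower and 91.2% past 2-fold, and the part of CpG content was not tested. The CCAAT share was 53.9%, 52.1%, 58.4% and 61.7% across the same classes.

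Several groups of genes used in every cell held members more often than the 11.4% of all protein-coding genes, with ratios near the 0.58 of all members. The aminoacyl-tRNA synthetases, which charge tRNAs, had members at 8 of 20 genes (interval 19.1 to 63.9%) with a median log2 ratio of 0.54. Among them Lars had 41 tags in M6 and 31 in W2, and Tars had 40 and 25. Cytosolic ribosomal proteins had members at 19 of 78 genes (24.4%, 15.3 to 35.4%) with a median of 0.58, and all 19 were higher in M6, near the 90.2% of all members. Rps19 had 48 tags in M6 and 26 in W2. Mitochondrial ribosomal proteins had 6 of 78 genes (7.69%, 2.88 to 16.0%, including the 11.4% of all genes), with a median of 0.23. Counting shared peaks at any number of genes, 20 of the 78 had one, against 3850 of all 21887 genes, so the share was below that of all genes under the limit to 1 gene and above it without that limit. The 6 ranged from Mrps14, with 45 tags in M6 and 20 in W2, to Mrpl17, with 34 and 32.

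Protein turnover, trafficking and folding genes were also frequent. Rab and Vps genes, which direct vesicles, had members at 28 of 104 genes (26.9%, 18.7 to 36.5%), led in ratio among the named ones by Rab8a with 85 tags in M6 and 34 in W2 (2.5, 1.66 to 3.84). Rab40b was lower in M6, with 28 tags in M6 and 32 in W2. Ubiquitin conjugating and deubiquitinating enzymes had 22 of 87 (25.3%), among them Usp22, a subunit of the SAGA complex, with 61 tags in M6 and 28 in W2. Proteasome subunits had 11 of 48 (22.9%), with Psmc4 at 29 tags in M6 and 27 in W2, and chaperones 17 of 79 (21.5%), with a median log2 ratio of 0.77 over 20 peaks. Dnajb1, an HSP70 partner, had 58 tags in M6 and 35 in W2, and Hspa2 had 59 and 34. The respiratory chain and ATP synthase had 13 of 84 (15.5%), whose interval of 8.51 to 25.01% included the share of all genes. Atp5g1, a ring subunit of ATP synthase, had 58 tags in M6 and 33 in W2.

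Genes that make and read RNA, and cell cycle genes, followed. Translation factors had members at 16 of 71 genes (22.5%), with a median log2 ratio of 0.64. Splicing factors had 14 of 69 (20.3%), of which Srsf3, an SR protein, was lower in M6 with 19 tags against 24 in W2. The RNA polymerase II machinery had 14 of 82 (17.1%, 9.66 to 27.0%), an interval that included the 11.4% of all genes, with Taf13, a TFIID subunit, at 25 tags in M6 and 25 in W2. The Zfp zinc finger genes had 58 of 367 (15.8%, 12.2 to 19.9%) and 61 peaks, of which 10 were lower in M6, against 7.23% of all members. Cell cycle and replication genes had 14 of 59 (23.7%, 13.6 to 36.6%), and all 14 peaks were higher in M6, as were 90.2% of all members. E2f3, an activator of S phase genes, had 84 tags in M6 and 41 in W2 (2.05, 1.39 to 3.05), and Mcm3, a subunit of the replicative helicase, had 49 and 34. Chromatin regulators had 9 of 56 (16.1%, 7.62 to 28.3%, also including 11.4%), and 5 with a −log10 q of at least 5 in both lists, among them Chd8, a remodeler, with 45 tags in M6 and 30 in W2.

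**Figure D5:**
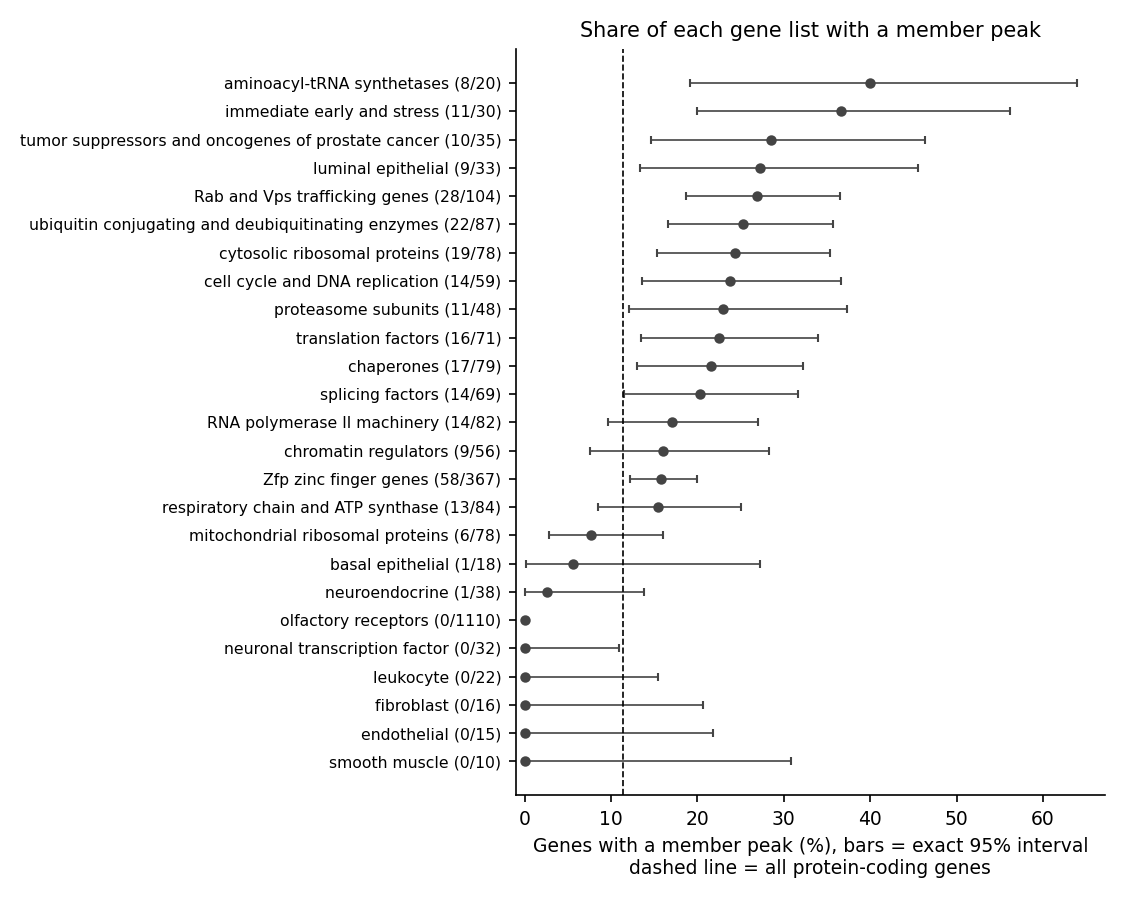
Percent of the genes of each list that carry a member (horizontal axis), with the number of genes with a member and the list size beside each name. Bars are exact 95% intervals and the dashed line is the 11.4% of all protein-coding genes. Aminoacyl-tRNA synthetases stand highest, with 8 of 20, and olfactory receptors and 5 marker lists are at 0.

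Luminal epithelial genes held several members, and the lists of other cell types 0 or 1 each. Immediate early and stress genes had members at 11 of 30 genes (36.7%, 19.9 to 56.1%) with a median log2 ratio of 0.78, including Fosl2, an AP-1 subunit, with 46 tags in M6 and 30 in W2. Klf2 was lower in M6, with 32 tags in M6 and 36 in W2. Luminal epithelial genes had 9 of 33 (27.3%, 13.3 to 45.5%) with a median of 0.56. This share lay within the range of the groups of widely used genes above. Those ran from 7.69% for mitochondrial ribosomal proteins to 40% for aminoacyl-tRNA synthetases, with 26.9% for Rab and Vps genes. Elf3, an epithelial ETS factor, had 46 tags in M6 and 27 in W2, Klf5 had 38 and 26, and the tight junction gene Cldn3 had 40 and 26. Of the defining epithelial markers, Epcam was a member with 25 tags in M6 and 17 in W2 and Cdh1 one with 19 and 21. Krt8 had a gene-end peak in M6 only and Krt18 had none.

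Neuroendocrine genes had 1 member among 38 genes (2.63%, 0.0666 to 13.8%), at Hes6, a regulator of neural differentiation, with 45 tags in M6 and 26 in W2 (1.73, 1.05 to 2.92). Basal epithelial genes had 1 among 18, at the downstream end of Sfn, with 23 tags in M6 and 19 in W2. Both counts were 0 with windows of 0.5 kb. Gene-end peaks of any kind were at 19 of the 38 neuroendocrine genes in M6 and 2 in W2. They were at 5 of the 18 basal genes in M6 and 3 in W2. Over all 21887 genes they were at 8688 in M6 and 4033 in W2. Lists for neuronal transcription factors (32 genes), leukocytes (22), fibroblasts (16), endothelium (15) and smooth muscle (10) had 0 members. The exact upper limits were 10.9% for the neuronal factors, 15.4% for leukocytes, 20.6% for fibroblasts, 21.8% for endothelium and 30.8% for smooth muscle, so only that of the neuronal factors lay below the 11.4% of all genes. The intervals of the neuroendocrine and basal lists (0.141 to 27.3%) also included it. The defining markers Ptprc, Pecam1, Cdh5, Col1a1, Dcn, Acta2 and Myh11 lacked a gene-end peak in M6 and in W2. Olfactory receptors, used mainly in the nose, had 0 members among 1110 genes, which allows a share of up to 0.270% by a limit of 3 counts and 0.332% by the exact interval. Tumor suppressors and oncogenes of prostate cancer had 10 of 35 (28.6%, 14.6 to 46.3%), with Mtor, the growth kinase, at 45 tags in M6 and 23 in W2 and Cdkn1b, the inhibitor p27, at 25 and 21. All 10 were higher in M6, near the 90.2% of all members, with a median log2 ratio of 0.40, and Mycl, which is among them, was lower in M6 by the authors' fold.

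Chromosome X stood apart from the autosomes. Members lay at 19 of its 966 genes (1.97%, 1.19 to 3.05%), against 8.97% (chromosome 7) to 15.1% (chromosome 18) on the autosomes. Gene-end peaks of any kind were at 23.2% of its genes in M6 and 4.04% in W2, against autosomal ranges of 31.6 to 48.2% in M6 and 16.6 to 24.6% in W2. The 19 had median pileups of 29 tags in M6 and 18 in W2, below every autosome (31 to 36 in M6, 20 to 23 in W2). Their local background was low as well, with medians of 3.28 tags in M6 and 2.96 in W2, against 4.40 and 3.46 over all members. The cause of the lower values on X was not tested. Among them, named after their values were seen, were Pgk1, a glycolytic kinase, with 29 tags in M6 and 22 in W2, Piga, of anchor lipid synthesis, with 47 and 26, Suv39h1, a histone methyltransferase, with 22 and 20, and Tfe3, a lysosomal gene regulator, with 34 and 17. Chromosome Y had 0 members among 256 genes.

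The limits of the rule left close calls on both sides. The members nearest the 1 kb limit were at Cdk2ap2, 998 bases from the gene end, with 33 tags in M6 and 26 in W2, Foxo3 at 992 bases with 45 and 20, and Iba57 at 989 bases with 32 and 22. Just outside were peaks near Mex3b at 1003 bases with 35 tags in M6 and 21 in W2, Pcgf1 at 1007 bases with 27 and 25, and Pkd1 at 1018 bases with 50 and 27. The smallest overlap with an M6 peak was 25 bases, at Ttc17, with 22 tags in M6 and 17 in W2.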

How the data were processed

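The 2 libraries were deposited as a peak list each, per the labels, so nothing was pooled. The tools named with build mm10 are deepTools, SAMtools 1.4, Bowtie2 and Trim Galore 0.5.0, per the submitters' processing notes. No peak caller, threshold, duplicate handling or shift of read ends is given in the sources used here. For each peak the authors deposited a fold (a linear ratio of summit over local background), a −log10 p, a −log10 q (lowest 1.38 in M6 and 1.47 in W2) and a score that repeats the −log10 q and was not used. Restricting both lists to chromosomes 1 to 19, X and Y kept 22570 of 22594 in M6 and 5735 of 5765 in W2.

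Summit pileup and local background were recovered from the deposited fold, taken as (pileup + 1)/(background + 1), and the deposited −log10 p, taken as an upper Poisson tail. A whole pileup was found for 100% of peaks in both lists within 0.001 of the deposited value, and the step was tested on simulated data. The M6 counterpart was the peak sharing most bases. Genes, promoter windows and strand came from RefSeq tables of GRCm38.p6. Strand and motifs of genes on chromosome 18 were not analysed here. Intervals are exact (Clopper-Pearson) for shares and for ratios of 2 counts, and order-statistic intervals for medians, all at 95%. Tools were Python 3.11.15, NumPy 2.4.6, SciPy 1.17.1, pandas 2.3.3 and Matplotlib 3.10.9.

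Members, gene lists and motifs were chosen with earlier results of these data known. Named were the 10 members with the highest W2 −log10 q, the 12 highest and 12 lowest log2 ratios outside raised M6 background (at least 3 times the median), up to 4 genes of each list by W2 pileup (all where a list has 6 or fewer), the gene with the highest W2 −log10 q for each motif, and the peaks nearest the 1 kb limit. Genes named for a raised background, a large summit distance or as defining markers were chosen after their values were seen. 1 gene that this rule names is not reported here. The alternatives tried are given in the closing section.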

Additional observations from a re-analysis of the deposited data

How the results depend on the processing

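No paired analysis was possible because each time point had 1 library. The number of members stayed within 1.5 times under all 5 alternatives, from 1802 with equal numbers of M6 peaks to 2570 with windows of 2 kb. The median log2 ratio of M6 to W2 was 0.70 with equal numbers of M6 peaks, 0.74 with pileups divided by the background floor and 0.28 by the authors' fold, and was positive throughout. Members past 2-fold numbered 626 with the floor and 27 by the fold. The share nearer the gene start was 98.6% with windows of 2 kb, and 98.0% of W2 summits lay within 1 kb of the start. The CCAAT share of member windows was 62.1% with a −log10 q of at least 5 in both lists and 61.0% with equal numbers of M6 peaks. The CCAAT shares of the highest and lowest W2 pileup classes stayed within their intervals under the 4 alternatives, which, like those on the CCAAT share and the removal of M6 peaks over several W2 peaks, were chosen after seeing the data. By the authors' fold the log2 ratio turned to −0.87 at Cap1, −0.67 at Mycl, −0.50 at Hpcal4 and −0.32 at Bmp8a, where the M6 background was raised. For the other changes the cause was not tested. Of 125 counts over gene lists, 111 stayed within 1.5 times and 14 did not. The 111 include lists with 0 members that stayed at 0. Alternatives that only remove members could not change those counts. Depth limits single members: at 11 to 30 tags a ratio near 1.5 cannot be told from 1.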

Other observations

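Some members lay at the end of a noncoding gene as well, which the rule did not count. Of the 2560 members 451 (17.6%, 16.2 to 19.1%) touched the end window of an annotated noncoding gene, and 387 (15.1%) that of a long noncoding RNA. These 451 had median pileups of 35 tags in M6 and 22 in W2 and a median log2 ratio of 0.61, against 32 and 22 tags and 0.58 for the 2109 that touched none. The pairs included 14 with a small nucleolar RNA gene and 13 with a microRNA gene. Examples chosen after their values were seen are Zbtb37 beside Gas5, a host of small nucleolar RNAs, with 33 tags in M6 and 20 in W2, and Slc3a2, an amino acid transporter chain, beside Snhg1, with 19 and 21. Glrx5, a mitochondrial glutaredoxin, lay beside Snhg10 with 57 tags in M6 and 36 in W2. Marf1 shared its member with the microRNA gene Mir484, and Tmem107 shared its downstream member with Snord118, with 25 tags in M6 and 19 in W2. With these data an accessible site between both cannot be assigned to either gene.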
